A study of Mus musculus with 16 samples.

Results

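The RNA-DNA contacts described here were those whose DNA side fell in or around the 4 Hox gene clusters of PGK12.1 mouse embryonic stem cells (mESCs). They were chosen by position alone, as the RNA-DNA pairs with a DNA tag in chr6:51.0-53.5 Mb (HoxA), chr11:95-97.5 Mb (HoxB), chr15:101.8-104.0 Mb (HoxC) or chr2:73.5-76.0 Mb (HoxD) of mm10, and each window was split into a cluster core and its flanks. The cores were chr6:52.15-52.27 Mb, chr11:96.19-96.37 Mb, chr15:102.91-103.04 Mb and chr2:74.66-74.77 Mb, which together spanned 540 kb of the 9700 kb of the windows. The windows held 5641 of the 1305107 listed pairs of the Input library (0.432%) and 6607 of the 1415135 listed pairs of the H3K27me3-RADIP library (0.467%). The cores alone held 161 and 857 of them.

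RADIP joins RADICL-seq, in which RNA is ligated to nearby genomic DNA through an adaptor inside crosslinked nuclei, to chromatin immunoprecipitation, here with an antibody against trimethylated lysine 27 of histone H3 (H3K27me3). PGK12.1 is an established mESC line and was grown with serum and leukemia inhibitory factor, with no other treatment or genetic change named in the labels. Both groups were crosslinked with 1% formaldehyde, and the Input group was the part of the ligated chromatin that was kept without antibody selection. The labels list 8 libraries per group, the methods describe 4 biological replicates per group, and all of them were merged into 1 list per group, so no spread between replicates could be measured and no test between conditions was possible.

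Hox genes encode homeodomain transcription factors that set position along the body axis, and in mammals they lie in 4 tight clusters in which gene order follows the order of expression in the embryo. In mESCs the clusters are classical targets of Polycomb repressive complex 2, which deposits H3K27me3, and they are nearly silent until differentiation signals such as retinoic acid open them. Polycomb-bound DNA in mammals is rich in CpG dinucleotides, and distant Polycomb-bound loci can gather in nuclear space.

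All values are counts of listed pairs, and normalised counts are pairs per 1000000 listed pairs of the library. Ratios are H3K27me3-RADIP over Input of normalised counts. A pair was listed by the authors if its combination of RNA and 25-kb DNA bin passed a q-value limit of 0.1, and no listed combination held fewer than 7 pairs. A combination that was not listed may still have had pairs, so a count of 0 is not an absence of contact, no fold is given against it, and the limit can enlarge differences between the libraries. Intervals are 95% intervals that cover counting error only. In this bulk population, a contact in few cells and a weak contact in all cells cannot be told apart. Of 14 embryonic stem cell marker RNAs, 9 were listed, among them Esrrb, Tfcp2l1 and Zfp42, whereas Pou5f1 and Nanog were not. Of the 5 markers each for other cells, 3 were listed for primitive endoderm and 1 each for trophoblast (Tfap2c), feeder fibroblasts (Col1a1) and neural cells (Nes).

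The promoters below show the kind of DNA that lies in the cores. For each cluster, the promoter shown is the one that had the most DNA tags within 1 kb of its start among the Hox promoters of the RefSeq table (GRCm38.p6, the assembly of mm10). Each runs from 250 bases before to 50 bases after the start, 5′ to 3′, and every CpG dinucleotide is in capitals.
Hoxa10 promoter (chr6:52240805-52241104, minus strand): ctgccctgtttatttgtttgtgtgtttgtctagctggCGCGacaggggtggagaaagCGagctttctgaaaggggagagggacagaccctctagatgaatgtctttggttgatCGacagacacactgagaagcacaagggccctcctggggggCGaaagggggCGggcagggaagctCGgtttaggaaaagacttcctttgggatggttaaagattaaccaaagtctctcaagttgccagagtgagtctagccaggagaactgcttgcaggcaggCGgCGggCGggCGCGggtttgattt
Hoxb8 promoter (chr11:96281655-96281954, plus strand): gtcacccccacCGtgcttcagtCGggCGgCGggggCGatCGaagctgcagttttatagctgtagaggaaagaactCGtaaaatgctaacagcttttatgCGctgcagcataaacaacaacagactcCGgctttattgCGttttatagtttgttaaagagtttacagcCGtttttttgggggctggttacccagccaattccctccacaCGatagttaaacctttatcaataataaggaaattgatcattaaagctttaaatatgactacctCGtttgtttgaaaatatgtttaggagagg
Hoxc4 promoter (chr15:103034145-103034444, plus strand): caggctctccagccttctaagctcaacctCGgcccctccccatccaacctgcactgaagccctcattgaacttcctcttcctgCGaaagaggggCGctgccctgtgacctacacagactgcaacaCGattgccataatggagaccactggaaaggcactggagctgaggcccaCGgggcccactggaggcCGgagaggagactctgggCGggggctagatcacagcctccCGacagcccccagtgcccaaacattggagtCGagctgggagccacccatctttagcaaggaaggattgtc
Hoxd1 promoter (chr2:74762730-74763029, plus strand): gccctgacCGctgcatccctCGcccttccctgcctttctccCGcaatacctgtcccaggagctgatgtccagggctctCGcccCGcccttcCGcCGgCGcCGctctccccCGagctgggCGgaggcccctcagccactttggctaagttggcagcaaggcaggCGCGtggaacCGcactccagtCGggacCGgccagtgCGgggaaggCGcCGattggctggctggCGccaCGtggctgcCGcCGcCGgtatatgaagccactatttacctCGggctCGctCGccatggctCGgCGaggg

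The Hoxa10 promoter held 12 CpG, the Hoxb8 promoter 13, the Hoxc4 promoter 9 and the Hoxd1 promoter 29. Of the 32851 promoters in the table, 39.6%, 37.9%, 45.8% and 12.9%, respectively, held at least as many. The median was 14.5 CpG over the 24 promoters listed for 22 Hox genes and 7 over all promoters. DNA tags within 1 kb of the Hoxa10 start numbered 0 in Input and 17 in H3K27me3-RADIP, and those 17 came from 6 RNAs (7 from Hibadh, 3 from Snx10, 2 each from Skap2, Exoc4 and Hoxa11, and 1 from Hoxa10 itself). The other promoters shown had few tags, with 1 and 4 at Hoxb8, 0 and 4 at Hoxc4, and 0 and 2 at Hoxd1. They were not the fullest starts of HoxB and HoxC, as the RefSeq table covers 22 of the 39 Hox genes. By GENCODE starts, Hoxb9 had 1 and 7 tags, Hoxb6 3 and 4, Hoxc9 2 and 6, and Hoxc8 3 and 5.

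CpG content set the whole cores apart from their surroundings. The 18 core bins of 25 kb that held pairs had a median of 23.6 CpG per kb (range 13.3 to 36.0), against 11.9 in the 245 flank bins and 10 over all 49062 bins with pairs. Only 0.652% of those bins reached the core median. Most core tags lay more than 1 kb from the GENCODE start of a Hox gene. Starts of other core genes and further promoters of Hox genes were not counted. Within 1 kb of a Hox gene start, which covers 13.8% of the core length, lay 15.5% (10.7 to 21.9, Wilson) of the core tags in Input and 16.5% (14.1 to 19.1) in H3K27me3-RADIP. By cluster, the H3K27me3-RADIP share was 19.6% in HoxA, 13.8% in HoxB, 16.8% in HoxC and 3.33% in HoxD, beside 18.3%, 11.1%, 12.8% and 14.5% of the length. In Input it was 14% in HoxA, 11.4% in HoxB and 35.3% (17.3 to 58.7) in HoxC, where it rests on 6 of 17 tags.

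The first question was whether selection for H3K27me3 changed the contacts of the clusters more than those of the surrounding DNA. Over the 4 clusters, the normalised count of core pairs was 4.91-fold higher in H3K27me3-RADIP (interval 4.14 to 5.85), and 1.61-fold higher (1.32 to 1.98) over the 14 combinations of RNA and bin that both libraries listed, while flank pairs stood at 0.968-fold (0.932 to 1.00), with 5480 and 5750 pairs in Input and H3K27me3-RADIP, respectively. The cores held 2.85% (2.45 to 3.32, Wilson) of the window pairs in Input and 13% (12.2 to 13.8) in H3K27me3-RADIP. Per 100 kb, this was 29.8 core pairs beside 59.8 flank pairs in Input, and 159 core pairs beside 62.8 flank pairs in H3K27me3-RADIP. In Input, the HoxA core (83.3 per 100 kb) was denser than its flanks (71.8), whereas the HoxB, HoxC and HoxD cores (24.4, 13.1 and 0) were sparser than theirs (93.2, 37.3 and 35.0). In H3K27me3-RADIP, each core was denser than the mean of its flanks. The core ratio was 5.07 times the flank ratio (Woolf interval 4.27 to 6.03).

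**Figure D1:**
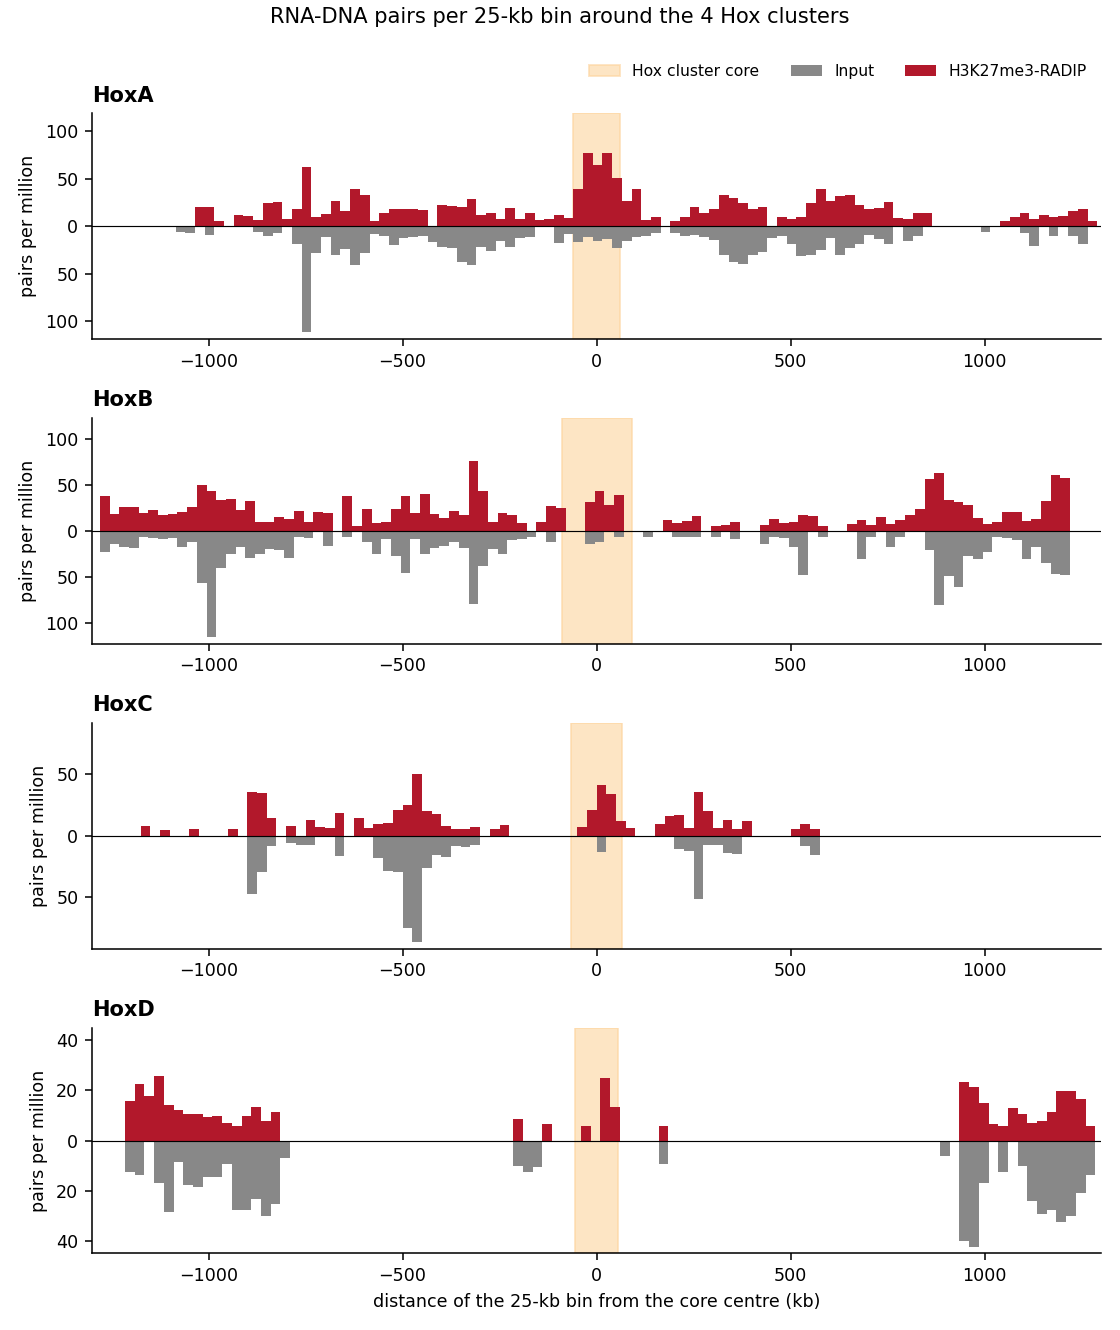
Pairs per 1000000 listed pairs (vertical axis) in each 25-kb bin against its distance from the core centre in kb (horizontal axis), for the 4 windows, with H3K27me3-RADIP drawn upwards in red, Input downwards in grey and the core shaded. The red bars exceed the grey ones in each core, and Input has few or no listed pairs in the HoxB, HoxC and HoxD cores. In the flanks, both colours have similar heights in most bins except around HoxD, where Input is higher.

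The HoxA core went from 100 pairs in Input to 419 in H3K27me3-RADIP, a ratio of 3.86 (3.10 to 4.86), whereas its flanks stood at 1.02 (0.956 to 1.09). HoxA was the core with the most pairs in both libraries. Restricted to combinations listed in both libraries, the HoxA core ratio was 1.71 (1.32 to 2.23).

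The HoxB core went from 44 to 217 pairs, a ratio of 4.55 (3.28 to 6.44), beside 1.07 (1.01 to 1.13) in its flanks. A single noncoding RNA, Gm53, supplied 28 of the Input pairs, and without it the ratio was 9.28 (5.54 to 16.6). Counting only pairs more than 25 kb apart left 5 and 128 pairs and a ratio of 23.6 (9.86 to 74.0), and keeping only combinations listed in both libraries gave 1.40 (0.946 to 2.10).

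The HoxC core went from 17 to 161 pairs, a ratio of 8.73 (5.29 to 15.4), beside 0.926 (0.837 to 1.02) in its flanks. The interval of the HoxC ratio overlapped that of HoxB and not that of HoxA. With combinations listed in both libraries only, 17 and 30 pairs were left and the ratio was 1.63 (0.869 to 3.15).

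The HoxD core had no listed pair in Input and 60 in H3K27me3-RADIP, a normalised count of 42.4. Its flanks moved the other way, from 836 to 576 pairs, a ratio of 0.635 (0.570 to 0.707), so the core share of the window was 0% in Input and 9.43% (7.40 to 12, Wilson) in H3K27me3-RADIP. Most of the HoxD flank was bare in both libraries. Only 55 and 31 pairs lay within 500 kb of the core, and over that narrower flank the core share in H3K27me3-RADIP was 65.9%. No HoxD core combination was listed in both libraries, and without the RNAs made in the core, or with pairs over 25 kb apart only, the normalised core count was 18.4.

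**Figure D2:**
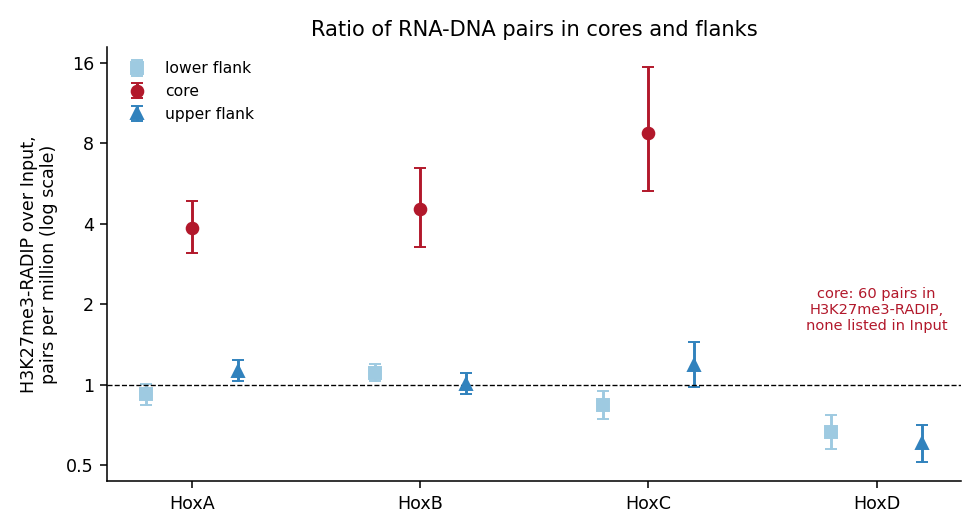
Ratio of normalised pair counts in H3K27me3-RADIP over Input (vertical axis, log scale) for the lower flank (squares), core (circles) and upper flank (triangles) of each window, with 95% intervals for counting error. The HoxA, HoxB and HoxC cores sit at 3.86, 4.55 and 8.73, the flanks of these windows near 1, and both HoxD flanks at 0.665 and 0.604.

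In single 25-kb bins, a bin was called when it held at least 20 pairs over both libraries and differed at least 2-fold in normalised count, and a bin of that depth listed in 1 library only was counted with the calls of that library, in the windows and over the genome alike. Bins cut by a core limit were counted whole. Of the 24 core bins, 18 held pairs and 14 were deep enough, and all 14 were called higher, 9 on a measured ratio (2.18 to 6.70) and 5 because no Input pair was listed there, where 12.2% of the 36489 bins tested over the genome were called higher and 10.7% lower. In the flanks, 30 of 192 tested bins (15.6%) were higher and 33 (17.2%) lower, both above the genome share. The windows differed, with 24.3% higher and 16.2% lower in the HoxB flanks, 12.7% and 9.52% in those of HoxA, 12% and 20.0% in those of HoxC, and 3.33% and 33.3% in those of HoxD. Bins that hold the start of a Pax, Lhx, Nkx, Irx, Dlx, Tbx, Gata or Six-family gene outside the windows, other developmental regulators, were called higher in 26 of 50 cases (52.0%). The difference between these loci and the core bins was not tested.

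Along the HoxA core, all 5 bins held pairs in both libraries. The bin with Hoxa13, the most 5′ gene, went from 30 to 72, a ratio of 2.21 (1.43 to 3.51). The bin with Hoxa4 and Hoxaas3 went from 15 to 109 pairs, the bin with Hoxa3, Hoxa5, Hoxa6 and Hoxa7 from 20 to 92, and the bin with Hoxa9, Hoxa10 and Hoxa11 from 18 to 109. Their ratios were 6.70 (3.89 to 12.4), 4.24 (2.59 to 7.27) and 5.58 (3.37 to 9.77). These 3 bins had higher ratios than the Hoxa13 bin, although among these 4 bins only the intervals of the Hoxa4 and Hoxa13 bins were apart. The bins with Hoxa4 and with Hoxa9 had the most pairs of the whole HoxA window in H3K27me3-RADIP, whereas in Input that bin was at Hnrnpa2b1 and Cbx3, 748 kb below the core centre (146 pairs, and 88 in H3K27me3-RADIP).

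In the other cores, Input pairs were confined to 3 of the 8 HoxB bins and 1 of the 6 HoxC bins. The HoxB bin with Hoxb8, Hoxb7 and Hoxb6 went from 16 to 61 pairs (3.52, 2.00 to 6.53), the Hoxb9 bin from 19 to 45 (2.18, 1.25 to 3.95), and the bin at 96.325 Mb from 9 to 55 (5.64, 2.76 to 13). The bin with Hoxb3, Hoxb4 and Hoxb5 went from 0 to 40, and the bin at Hoxb13, at the far 5′ end of the cluster, from 0 to 35. That bin crosses the core limit, and fewer than 20 of its pairs lay within the core. In HoxC, the bin with Hoxc9, Hoxc8 and Hoxc6 went from 17 to 58 (3.15, 1.81 to 5.76), the bin with Hoxc10 and Hoxc11 from 0 to 30, and the bin with Hoxc4 from 0 to 48. In HoxD, the bin with Mir10b, a microRNA gene of the cluster, had 35 pairs, the bin with Hoxd1 and the antisense lncRNA Haglr 19, and the bin with Hoxd9 to Hoxd12 8, all in H3K27me3-RADIP alone. In the HoxB and HoxC windows the bin with the most pairs lay in a flank in both libraries. It was 95.275 Mb in Input (150 pairs, 62 in H3K27me3-RADIP) and 95.95 Mb in H3K27me3-RADIP (107, 103 in Input) for HoxB, and 102.5 Mb for HoxC, with 113 and 71 pairs. In the HoxD window it was 75.675 Mb in Input (55 pairs, 30 in H3K27me3-RADIP) and 73.575 Mb, at the muscle receptor gene Chrna1, in H3K27me3-RADIP (36, 22 in Input).

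Of the 30 flank bins called higher in H3K27me3-RADIP, 6 are given with their values because they hold the start of a homeobox, T-box or Sp-family gene, a choice made after their values were seen. The bin of Evx1, a homeobox gene next to HoxA, about 102 kb above the core centre, went from 15 to 55 pairs (3.38, 1.88 to 6.44). The bin of Dlx3 went from 9 to 27 (2.77, 1.26 to 6.69) and that of Dlx4 from 10 to 32 (2.95, 1.42 to 6.73), homeobox genes 1168 and 1142 kb below the HoxB core centre. The bins of Tbx21, a T-box factor of immune cells, Sp6, and Sp7, a factor of bone-forming cells, had no listed pair in Input and 33, 21 and 20 in H3K27me3-RADIP. Not every start of these families rose. The flank bin of Sp1 went from 24 to 14 pairs (0.538), and that of Sp2, too shallow for a call, had 9 in each library. The families were not tallied over all flank bins. Other higher flank bins held starts of other genes, such as Nxph3 (8 and 31 pairs) and Phospho1 (11 and 27), or no listed start. Richness in CpG went with the calls across the flanks. Flank bins at or above 13.3 CpG per kb, the lowest value of a core bin, were called higher in 22 of 72 cases (30.6%) and lower in 7, and those below it higher in 8 of 120 (6.67%) and lower in 26. Over bins outside the windows, the same split gave 18.6% and 10% called higher. The part of CpG content in the core ratios was not tested.

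**Figure D3:**
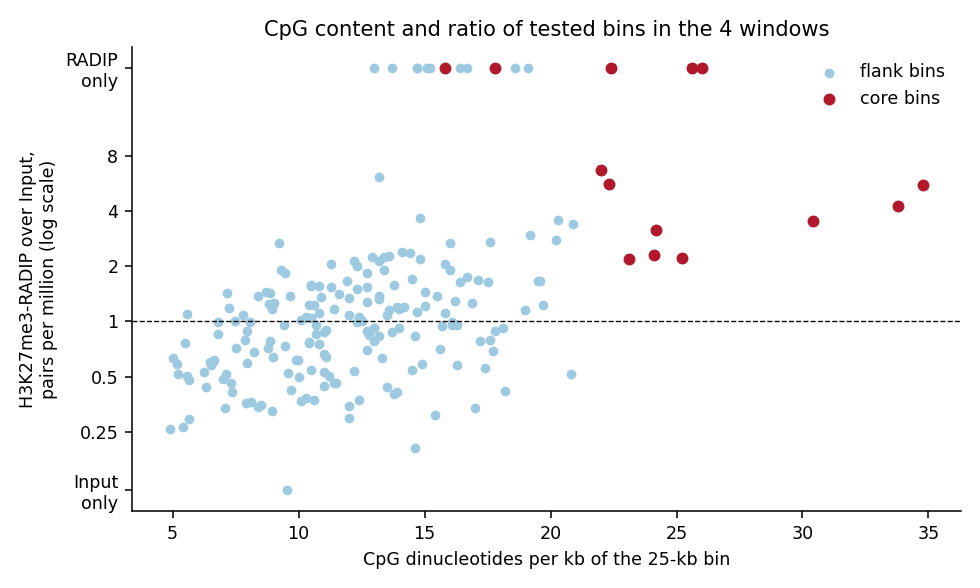
CpG dinucleotides per kb (horizontal axis) against the ratio of normalised pair counts in H3K27me3-RADIP over Input (vertical axis, log scale) for the tested 25-kb bins of the 4 windows, with core bins in red and flank bins in blue. Bins listed in 1 library only are drawn in rows of their own at the top and bottom, off the scale, and the 14 core bins, 9 of them above a ratio of 2 and 5 in the top row, lie at 15.8 or more CpG per kb.

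The next question was which RNAs contacted the cores. In Input, 10 RNAs had DNA tags there, in H3K27me3-RADIP 34, and 35 in all. They were grouped by where the RNA itself was transcribed. RNAs made within the cores gave 69 pairs in Input (42.9% of core pairs, 35.5 to 50.6, Wilson) and 310 in H3K27me3-RADIP (36.2%, 33.0 to 39.4). RNAs made in the flanks gave 92 and 388 pairs, RNAs from the rest of the chromosome 0 and 139, and RNAs of another chromosome 0 and 20. Over the 4 clusters, the ratio was 4.14 (3.18 to 5.46) for core RNAs and 3.89 (3.09 to 4.94) for flank RNAs, so these pooled ratios differed by less than their counting error. Of the 92 Input pairs of flank RNAs, 84 were on HoxA, and the clusters differed. Core RNAs stood at 5.19 (3.03 to 9.46) in HoxA, 2.41 (1.69 to 3.49) in HoxB and 7.28 (3.62 to 16.6) in HoxC. Flank RNAs stood at 3.07 (2.40 to 3.97) in HoxA and 4.38 (2.01 to 10.9) in HoxC, and went from 0 to 51 pairs in HoxB.

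**Figure D4:**
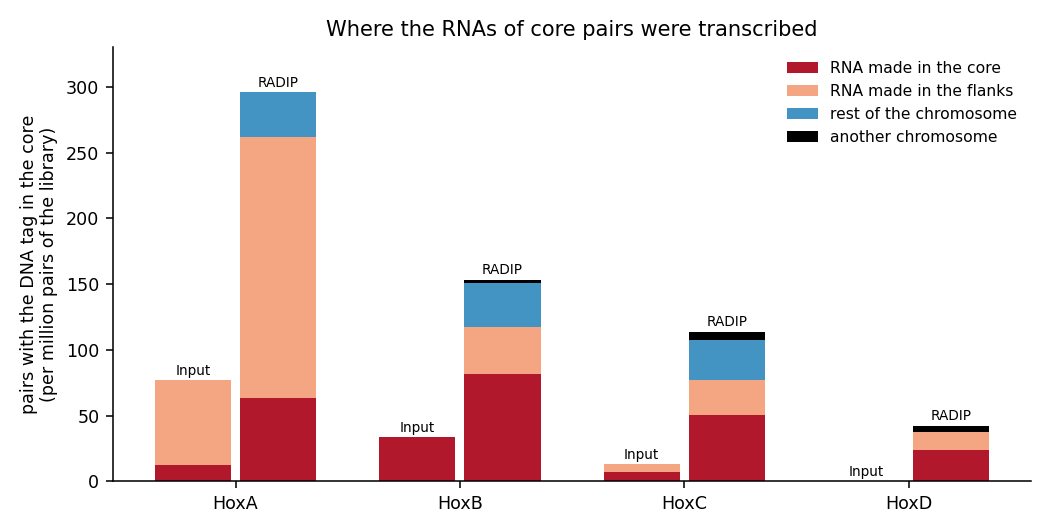
Pairs with the DNA tag in a core, per 1000000 listed pairs (vertical axis), for each cluster and library, stacked by the place where the RNA was transcribed. RNAs from the rest of the chromosome and from another chromosome appear in the H3K27me3-RADIP bars only, and flank RNAs form most of the HoxA bars.

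Transcripts of some Hox genes themselves were listed. Of 39 annotated Hox genes in the cores, 11 had a listed RNA, 4 in Input and 10 in H3K27me3-RADIP (7 in H3K27me3-RADIP only and 1 in Input only), with 34 and 162 pairs in all. Over the genome, 12086 RNAs were listed, 1906 of them in H3K27me3-RADIP only and 1420 in Input only. Of 51 other annotated genes in the cores, 6 were listed, with 35 and 148 pairs. All 379 pairs of these RNAs had their DNA tag within the core in which they were made, and none reached a flank in either library.

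In HoxA, the largest local RNA was Gm28308, a predicted coding gene that overlaps Hoxa2 to Hoxa6 on the same strand, so that its tags and theirs cannot be told apart. It had no listed pair in Input and 37 in H3K27me3-RADIP. Hoxaas3, an antisense lncRNA of the cluster, went from 7 to 29 (3.82, 1.64 to 10.3). Hoxa10, a factor of the posterior trunk and the reproductive tract, went from 0 to 10, Hoxa11, a limb and reproductive tract factor, from 0 to 7, and its antisense lncRNA Hoxa11os from 0 to 7. Hoxa9, known for its part in blood progenitors, was the exception, with 9 pairs in Input and none listed in H3K27me3-RADIP.

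In HoxB, the lncRNA Gm53 went from 28 to 56 pairs, the lowest ratio (1.84, 1.15 to 3.02) among the RNAs listed in both libraries with at least 20 core pairs. It spread over 2 core bins in Input and 4 in H3K27me3-RADIP. Hoxb3, an anterior gene of the hindbrain, went from 9 to 22 (2.25, 0.998 to 5.56), Hoxb9 from 0 to 21, the antisense lncRNA Hoxb5os from 0 to 9, and Hoxb6 had 7 pairs in each library. In HoxC, the gene model Hoxc5 went from 9 to 47 (4.82, 2.33 to 11.2), but it overlaps Hoxc6, Hoxc8, Hoxc9 and Hoxc10 on the same strand. Hoxc4 went from 0 to 17 and Hoxc10 from 0 to 7. In HoxD, all 3 local RNAs were listed in H3K27me3-RADIP alone, Hoxd3 with 16 pairs, whose model overlaps Hoxd4 and Mir10b, Haglr with 10 and Hoxd11 with 8. Of the RNA tags of core pairs, 78.9% were intronic in Input and 83.2% in H3K27me3-RADIP. The share from lncRNAs was 21.7% and 16.9% in the cores, against 0.639% and 1.20% in the flanks. Gm53 alone gave 28 of the 35 lncRNA core pairs in Input and 56 of the 145 in H3K27me3-RADIP.

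**Figure D5:**
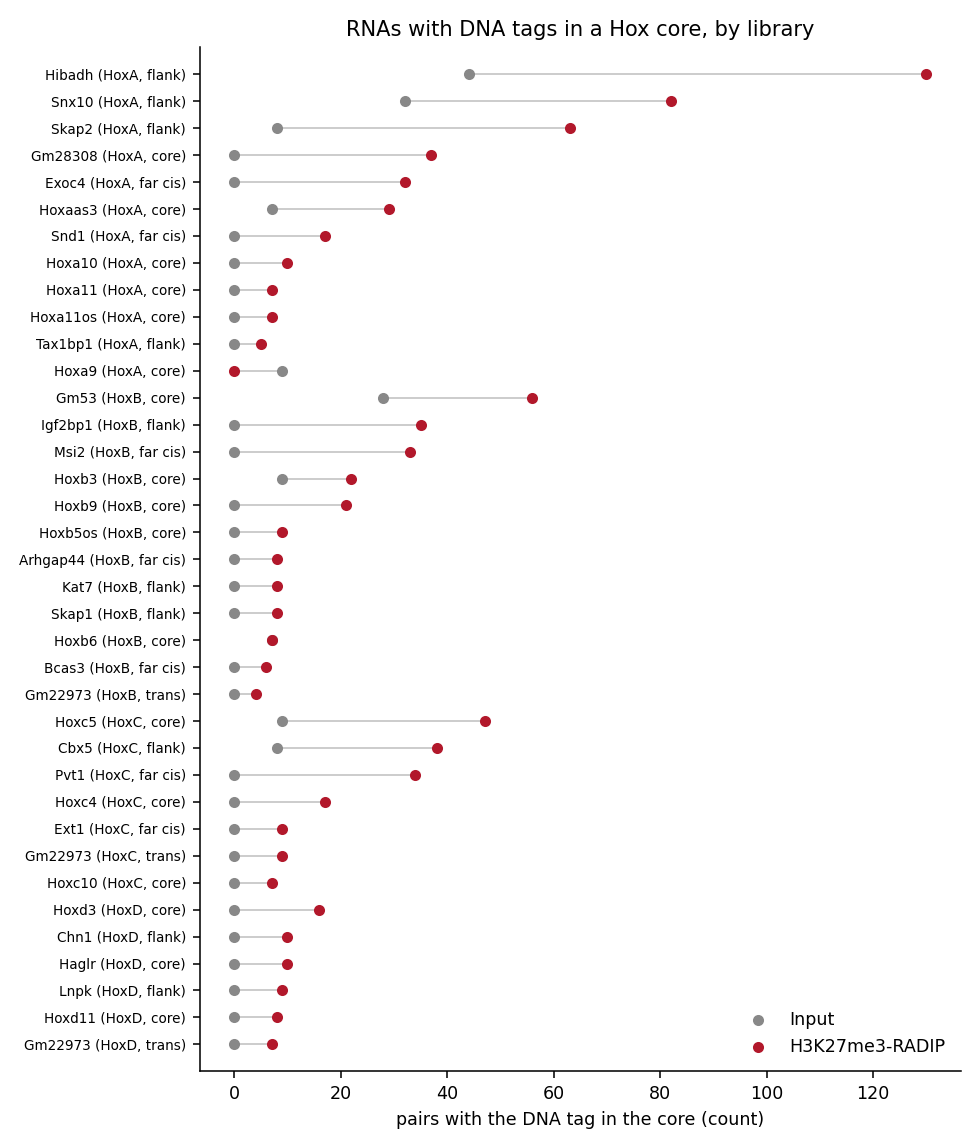
Pairs with the DNA tag in a core (horizontal axis, count) for each RNA and cluster, with Input in grey and H3K27me3-RADIP in red, and the place where the RNA was transcribed in brackets. For Hoxb6, with 7 pairs in each library, the points coincide, and Hoxa9 is the only RNA whose Input point lies to the right.

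Of the 388 core pairs of flank RNAs in H3K27me3-RADIP, most came from genes beside HoxA. Hibadh, which encodes an enzyme of valine breakdown, gave 44 core pairs in Input and 130 in H3K27me3-RADIP (2.72, 1.92 to 3.93), across 276 kb of DNA between its nearest end and the core. Its pairs elsewhere went from 494 to 564, a ratio of 1.05 (0.931 to 1.19), and the core ratio was 2.59 times that (1.80 to 3.72). Snx10, a sorting nexin gene 559 kb away on the other side, gave 32 and 82 core pairs (2.36, 1.55 to 3.68) beside 1.04 (0.909 to 1.19) elsewhere. Skap2, an adaptor protein gene 137 kb away, gave 8 and 63 (7.26, 3.47 to 17.6) beside 0.835 (0.706 to 0.988) elsewhere. For each of these genes, the interval of the core ratio lay above that of the ratio elsewhere.

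A region of the same length at the same distance on the other side of each gene served as a comparison. There, Input listed 30 pairs of Hibadh and H3K27me3-RADIP 33, and for Skap2 the counts were 33 and 17. Snx10 had none in either library at this distance, although it had 82 core pairs. In HoxB, Igf2bp1, an mRNA-binding protein gene 184 kb away, gave 0 and 35 core pairs, beside 36 and 28 in the region on its other side and a ratio of 1.09 (0.951 to 1.26) elsewhere. In HoxC, Cbx5, which encodes heterochromatin protein 1 alpha, gave 8 and 38 (4.38, 2.01 to 10.9) beside 1.43 (0.986 to 2.09) elsewhere.

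The remaining flank RNAs had few core pairs, all in H3K27me3-RADIP alone. Chn1, a GTPase-activating protein gene, had 10 on HoxD, Lnpk, an endoplasmic reticulum protein gene next to HoxD, 9, and Skap1 8 on HoxB. Kat7, a histone acetyltransferase gene, also had 8 on HoxB, but at 3 distinct tag positions only and beside 0 and 11 in the region on its other side, and Tax1bp1 had 5 on HoxA. Lnpk had a ratio of 0.450 (0.254 to 0.776) elsewhere, so that its core contacts were listed in the library in which its other contacts were fewer.

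RNAs made more than 5 Mb away were listed on the cores in H3K27me3-RADIP only. They gave 139 of the 857 core pairs (16.2%) and none of the 161 in Input, whereas in the flanks the share of such pairs was 1.57% and 4.09%, and in the whole library 0.353% and 1.34%. With so few Input core pairs and at least 7 pairs per listed combination, their absence in Input may reflect the limit. Over the genome, 77.5% of the 2252 listed cis combinations beyond 5 Mb were listed in H3K27me3-RADIP and not in Input. Exoc4, an exocyst subunit gene 18.2 to 18.9 Mb from HoxA, gave 32 core pairs over 3 neighbouring bins, and 13 more in the Evx1 bin. The core held 13.2% of its 243 far pairs. Snd1, a nuclease-domain protein gene 23.3 to 23.7 Mb away, gave 17 over 2 bins, and these were the same bins in which Exoc4 had 16 and 9.

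On HoxB, Msi2, which encodes an RNA-binding protein of stem cells, gave 33 pairs (2.98% of its far pairs) over 3 neighbouring bins from 7.57 to 7.96 Mb away. Arhgap44 gave 8 pairs from 31.1 to 31.3 Mb away, in the bin of Hoxb6, Hoxb7 and Hoxb8, the one place beyond 5 Mb where it was listed. Bcas3 gave 6 at the edge of the core, 10.6 to 10.7 Mb away. On HoxC, the lncRNA Pvt1, the neighbour of Myc, gave 34 pairs over 4 bins from 40.7 to 41.0 Mb away, 12.7% of its 267 far pairs. Ext1, a heparan sulfate polymerase gene, gave 9 (2.72% of its far pairs) from 49.6 to 49.9 Mb away, in a bin that Pvt1 contacted too. HoxD had no such RNA. For most of these RNAs, far pairs were also more numerous in H3K27me3-RADIP outside the cores. All far pairs over the chromosome numbered 25 and 243 for Exoc4, 46 and 267 for Pvt1, 124 and 1107 for Msi2, 45 and 331 for Ext1, and 48 and 101 for Snd1, while Bcas3 had 16 and 25, and Arhgap44 0 and 8, all 8 in the core. Their total pairs were 7567 and 7408 for Exoc4, 5620 and 5814 for Pvt1, and 5402 and 7270 for Msi2, whose ratio outside the core was 1.24, with an interval above 1.

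A single RNA contacted the cores in trans. Gm22973, a small nuclear RNA gene on chromosome 12, had no listed core pair in Input and 20 in H3K27me3-RADIP, with 4 on HoxB, 9 on HoxC and 7 on HoxD, 1 bin each. Each of the 3 core combinations had a q-value of 0.0446, and the 4 pairs on HoxB share a bin with 5 pairs counted in its flank. The Input count of 0 may reflect the limit, so no change in the cores can be read from these pairs. In the whole library, the trans pairs of Gm22973 went from 2940 to 1765. In the flanks it had 61 and 50. Its 191 bases are shown because they are those of a U2-like spliceosomal RNA, and their first 60 bases occur at 13 places of the genome, so the tags may stem from another copy.
Gm22973 (chr12:59040335-59040525, plus strand): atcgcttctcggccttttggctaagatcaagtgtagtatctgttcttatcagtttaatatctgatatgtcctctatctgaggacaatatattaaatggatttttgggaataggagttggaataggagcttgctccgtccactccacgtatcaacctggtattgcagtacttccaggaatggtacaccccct

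The distance that core pairs spanned differed between the clusters. Over all cis core pairs, median distances of 293 kb (Input) and 290 kb (H3K27me3-RADIP) were found, beside 21.4 and 37.6 kb in the flanks. HoxA changed least (364 and 359 kb), where flank RNAs prevailed in both libraries, and the HoxB median went from 4.29 to 71.5 kb and the HoxC median from 9.76 to 182 kb. Pairs over 1 Mb made up 0% and 18.8% of core pairs and 1.59% and 4.42% of flank pairs.

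Counted as combinations of an RNA and a bin, the cores had 69, of which 54 (78.3%) were listed in H3K27me3-RADIP only, 14 in both libraries and 1, Hoxa9, in Input only. In the flanks, 144 of 442 (32.6%) were listed in H3K27me3-RADIP only and 76 (17.2%) in Input only, near the shares over all 89052 combinations of the genome (28.0% and 17.4%). The 14 shared core combinations had a ratio of 1.61 (1.32 to 1.98), and the 222 shared flank combinations 0.840 (0.806 to 0.876). All other core pairs of H3K27me3-RADIP belonged to combinations that passed the limit in that library only.

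In the flanks, the RNAs with the most pairs were those of the genes in place, and most differed little. Beside HoxA, Snx10 had 409 and 459 pairs in the lower flank (1.03, 0.904 to 1.19), Skap2 288 and 269, and Hnrnpa2b1, a splicing regulator, 145 and 121 (0.770, 0.600 to 0.986). In the upper flank, Hibadh had 494 and 529 (0.988, 0.872 to 1.12), Jazf1 143 and 177, Tax1bp1 76 and 85, and Creb5, a leucine zipper factor, 68 and 124 (1.68, 1.24 to 2.30). Among the leading RNAs of the HoxA flanks, the interval of Creb5 lay above 1 and that of Hnrnpa2b1 below it. Beside HoxB, Kat7 had 428 and 454, Igf2bp1 379 and 433 and Zfp652 122 and 152 in the lower flank, and Npepps 263 and 276, Arhgap23 238 and 238 and the importin gene Kpnb1 128 and 147 in the upper flank. None of these 6 RNAs had an interval that excluded 1. Msi2, named here for its core contacts, had 67 and 144 in the lower flank (1.98, 1.47 to 2.69).

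Beside HoxC, Pcbp2, an RNA-binding protein gene, went from 206 to 169 (0.757, 0.614 to 0.932), while Gm28047 had 107 and 101, the translation factor gene Eif4b 88 and 91, Cbx5 49 and 76 and the splicing factor gene Hnrnpa1 57 and 68. Pde1b had 22 and 14, and the integrin gene Itga5 had 17 in H3K27me3-RADIP only. Around HoxD, 6 of the 7 leading RNAs had ratios below 1. Atf2, a stress-responsive transcription factor gene, went from 175 to 84 (0.443, 0.337 to 0.577), and Chn1 from 184 to 160 (0.802, 0.645 to 0.997). On the other side, Agps, of ether lipid synthesis, went from 273 to 186 (0.628, 0.519 to 0.760), Nfe2l2, the regulator of the oxidative stress response, from 75 to 39 (0.480, 0.317 to 0.715), and Hnrnpa3 from 49 to 22 (0.414, 0.238 to 0.698). Lnpk, given above, was the sixth, and Wipf1, an actin regulator gene, was the exception with 25 and 43 (1.59, 0.947 to 2.71). HoxD thus combined the sparsest core with the only window in which the intervals of both flanks lay below 1.

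RNAs of related pathways were counted by their pairs over the whole genome. Of 8 homeobox relatives of the Hox genes, Cdx1 alone was listed (7 and 9 pairs), too few to be called. Evx1 and Evx2, which adjoin HoxA and HoxD, had no listed RNA, although DNA at Evx1 had more pairs in H3K27me3-RADIP. Of 9 genes for cofactors of HOX proteins, 8 were listed, 7 were deep enough, and 1, Meis1 (22 and 49 pairs, 2.05, 1.22 to 3.57), was at least 2-fold higher, with a median ratio of 1.10. Over all 8384 RNAs tested, 8.22% were higher, 11.3% were lower and the median was 0.951. Of 12 genes of the retinoic acid pathway, 9 were listed, 8 were deep enough, and 3 were higher and none lower, with a median of 1.43. These were Rarg, a retinoic acid receptor that lies in the HoxC window (10 and 28 pairs, 2.58, 1.22 to 5.96), Cyp26b1, a retinoic acid-degrading enzyme (9 and 23, 2.36, 1.05 to 5.79), and Aldh1a2, which makes retinoic acid (7 and 16, 2.11, 0.821 to 6.06), whose interval spans 1, whereas Rara stood at 83 and 53 (0.589, 0.409 to 0.841). Rxra, a retinoid X receptor gene and the member with the most pairs, had 213 and 341 (1.48, 1.24 to 1.76).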

How the data were processed

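RNA-DNA pairs were measured by RADICL-seq in PGK12.1 mESCs, with (H3K27me3-RADIP) or without (Input) antibody selection. Per the labels and methods, the authors separated RNA and DNA reads, aligned them to mm10 (the processing notes name STAR 2.5.0a, BWA 0.7.15-r1140 and CASAVA 1.8.2), kept unique pairs, merged the libraries of each group and listed the pairs whose combination of RNA and 25-kb bin passed a test against a negative binomial background. The deposited tables give, per pair, the tag positions and labels and a p-value and a q-value from the authors' test (up to 0.1), and the pairs were counted here. Groups were taken from the fraction label. The values are 1 merged list per group, so p-values between groups were not computed. The listed totals of 1305107 and 1415135 pairs are not sequencing depths.

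A pair was placed by the centre of its DNA tag, and its RNA by the centre of its RNA tag. Ratios have exact conditional binomial intervals, core against flank Woolf intervals and shares Wilson intervals (Python 3.11.15, numpy 2.4.6, pandas 2.3.3, scipy 1.17.1). Tag positions repeated within a library were kept in the main counts. Gene models came from GENCODE M21, on the same assembly, and all 35 RNAs with a core tag matched it. The text names all core RNAs, the 3 RNAs with the most pairs on each flank side per library, the fullest bins and fixed gene lists. Windows, lists and alternatives were chosen with earlier results of these data known. The call and interval code was tested on simulated data. One bin of the HoxA core is not reported on its own here.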

Additional observations from a re-analysis of the deposited data

How the results depend on the processing

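No paired analysis was possible because the replicates of each group were merged into 1 list. Of 112 values under alternatives, 78 stayed within the main interval or, for counts, within 1.5 times, 34 did not, and no ratio turned to the other side of 1. The order of the libraries did turn for the share from core RNAs, which was lower in Input with shared combinations (39.5%) or with pairs over 25 kb apart, and for the median distance under these alternatives and without core RNAs or the leading RNAs. Keeping only combinations listed in both libraries moved every core ratio and both HoxD values: the core ratio was 1.71 for HoxA, 1.40 for HoxB and 1.63 for HoxC, the ratio against the flank 1.84, 1.61 and 2.13, the HoxD values a normalised count of 0 and 0 percentage points, and the share from core RNAs in H3K27me3-RADIP 39.8%. With q at most 0.01, the HoxA core ratio was 5.09 (4.96 against the flank) and HoxD a normalised count of 28.3 (6.43 percentage points). Without Gm53, HoxB was 9.28 (8.68 against the flank). Without Hoxd3, the normalised HoxD count was 31.1 (7.10 percentage points), and without the leading RNA of each cluster the share from core RNAs in H3K27me3-RADIP was 31.4%. With pairs over 25 kb apart only, HoxB was 23.6 (17.4 against the flank), the normalised HoxD count 18.4, the share from core RNAs 5.15% in Input and 6.01% in H3K27me3-RADIP, and the median distance 369 and 402 kb. Without RNAs made in the core, that count was 18.4 (4.32 percentage points), the median distance 372 and 421 kb, and HoxB had no listed Input pair and so no ratio. With flanks of 500 kb the HoxD core share was 65.9 percentage points higher, and scaled by the pairs on chromosome 2 alone its core count was 600 per 1000000. Requiring 50 pairs per bin left 91 bins, 15 called higher and 14 lower (genome 8.46% and 7.97%), with 9 of 9 core bins higher, and a 1.5-fold limit called 64 higher and 60 lower (genome 22.9% and 23.0%). The change under the distance and source alternatives follows from the pairs they remove, and for the rest the cause was not tested. The alternative limited to RNAs made in the same window, added after seeing the data, kept every core value within its interval. The limit of at least 7 pairs per listed combination sets what could be seen, so weak contacts of Input cannot be told apart from none.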
